A study of Mus musculus with 11 samples.

Results

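Pyruvate oxidation and the tricarboxylic acid cycle were followed through 32 genes in whole kidneys of Col4a3 heterozygous and knockout mice. The genes were chosen by name for what their products do, but with earlier results of these data known. They encode subunits of the pyruvate dehydrogenase complex with its kinases and phosphatases, the enzymes of the cycle, and 3 enzymes beside it (malic enzyme, ATP citrate lyase and mitochondrial aspartate aminotransferase). Of the 32 genes, 29 had a row among the 24914 names counted in each library. All 29 passed the filter on low counts, which left 14380 loci to test. Dlat, Dld and Sdha were not analysed here.

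The kidneys came from 129X1/SvJ mice aged 5.5 weeks. HET PBS kidneys were Col4a3+/- and received PBS (n = 3), KO PBS kidneys were Col4a3-/- and received PBS (n = 4), and KO antimiR-21 kidneys were Col4a3-/- and received antimiR-21, which is directed against the microRNA miR-21 (n = 4). Col4a3 encodes a chain of the type IV collagen of the glomerular basement membrane, and its loss is a model of Alport syndrome, a progressive inherited kidney disease. The heterozygous kidneys, not wild-type ones, are thus the reference, the inhibitor was given to knockouts alone, and whole kidney mixes all nephron segments with vessels, interstitium and immune cells.

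The libraries held 17.9 to 39.7 M counts once reads shared by neighbouring names had been counted a single time. Levels are given as CPM, counts per M on scaled library sizes. The Col4a3 row had the same count as Col4a4 in every library, and the joint locus lay between 870.1 and 1271 CPM in HET PBS, 607 and 997 CPM in KO PBS, and 515 and 809 CPM in KO antimiR-21, so that it does not check the genotype by itself. Y-linked reads were present in 2 of 3 HET PBS libraries (replicates 2 and 3), 2 of 4 KO PBS libraries (3 and 4) and 1 of 4 KO antimiR-21 libraries (4), 5 of 11 in all, and the labels give no sex. Nothing in the labels states that each library is a separate animal, so that p-values measure the spread between these libraries.

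The pyruvate dehydrogenase complex turns pyruvate into acetyl-CoA inside mitochondria. Its kinases switch it off by phosphorylation and its phosphatases switch it on again. Citrate synthase then joins acetyl-CoA to oxaloacetate, and the cycle oxidises the product stepwise, passing electrons to the respiratory chain. In the kidney the proximal tubule, which reabsorbs most of the filtered solute, is rich in mitochondria and depends on oxidation through the cycle.

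The treatment inhibits miR-21, whose mature mouse form (RefSeq, GRCm38.p6, chr11:86584120-86584141, minus strand) is shown with its seed, bases 2 to 8, in capitals, beside the seed match found among the members. The letters ATAAGCT, the DNA reverse complement of that seed, were sought on the transcript strand in the 3 prime UTR annotated for each gene (the longest where several are). They occurred in 1 of the 29 members, Pdha1, and in 7.0% of 21707 genes with such a UTR. The Pdha1 match (chrX:160122402-160122428, minus strand, GENCODE vM21 on GRCm38) lies where that gene overlaps Map3k15, and it is shown with the match in capitals.
miR-21a-5p: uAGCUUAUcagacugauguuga
Pdha1 3 prime UTR: tgcaaccagtctATAAGCTctctgtcg

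The promoters of 26 members, from 250 bases before to 50 after each RefSeq start on GRCm38.p6, were searched on both strands for 4 motifs. CACGTG, the palindromic E-box that circadian clock and MYC-family factors are known to bind, lay in promoters of 3 members, Ogdh, Pdk2 and Pdp2, against 8.09% of the 27025 genes with a promoter in that table (7.15% of its 32851 windows). These 3 are shown because they are also the 3 members with the smallest p between KO PBS and HET PBS, a choice made from these same data. None of the 3 passed the adjusted threshold, and a link between the E-box and the differences was not tested. The Pdk2 stretch is chr11:95041372-95041621 on the minus strand, with the E-box in capitals beginning 126 bases before the start. The Pdp2 stretch is chr8:104591222-104591450 on the plus strand, with its E-box 219 bases before the start. Pdk2 has another start without an E-box. Ogdh has 6 start windows on the plus strand, of which the 3 upstream ones hold none and the 3 downstream ones hold 2 distinct E-boxes, at chr11:6292048-6292077 and chr11:6292405-6292434, both inside exons of other annotated Ogdh transcripts.
Pdk2 upstream: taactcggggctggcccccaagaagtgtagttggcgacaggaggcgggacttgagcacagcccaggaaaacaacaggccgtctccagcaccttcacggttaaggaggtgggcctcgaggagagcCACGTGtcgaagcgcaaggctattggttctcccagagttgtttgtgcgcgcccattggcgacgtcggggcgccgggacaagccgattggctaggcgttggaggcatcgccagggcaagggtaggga
Pdp2 upstream: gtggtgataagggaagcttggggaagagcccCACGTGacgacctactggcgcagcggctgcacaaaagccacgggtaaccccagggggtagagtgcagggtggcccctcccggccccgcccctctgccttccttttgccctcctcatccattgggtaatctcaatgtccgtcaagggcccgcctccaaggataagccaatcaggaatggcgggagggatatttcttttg
Ogdh E-box a: gtcgcggcgtgtCACGTGgaccggtcgctc
Ogdh E-box b: ggcaagaatcctCACGTGgataccatgtaa

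TCAAGGTCA, bound by estrogen-related receptors, lay in the promoter of Sdhd (0.47% of genes). The NRF1 motif lay in those of Sdhd and Sucla2 (5.19% of genes). TGACNNNGC, the core of the antioxidant response element that NRF2 binds, lay in those of Dlst, Idh3g, Mdh1, Me1, Pdhb and Sucla2 (13.99% of genes). No sought motif is contained in another, a match is a description of these windows only, and Pdp1, Sdhc and Idh3a were not searched.

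Reads could be given to a single gene for 20 members. The other 9 shared their count with a neighbour on the opposite strand: Pdha1 with Map3k15, Pdhb with Pxk, Pdk2 with Samd14, Cs with Coq10a, Idh3b with Nop56, Idh3g with Ssr4, Dlst with Rps6kl1, Mdh1 with Wdpcp, and Me1 with its antisense gene A330041J22Rik. The library kit does not mark strand. Some of these pairs, such as Pdk2 with Samd14, do not overlap in the gene models used here, and the cause of the shared counts was not tested. Values of those 9 belong to the pair. The Pdk2 gene (chr11:95026258-95041354, minus strand, GRCm38) ends 171 bases from Samd14.

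Per kilobase of exon, the 20 members with their own count spanned a wide range. Idh2, the mitochondrial NADP-linked isocitrate dehydrogenase, stood highest at 301 ± 30.5 CPM per kb in HET PBS (SD, n = 3), 263 ± 16.0 CPM per kb in KO PBS (SD, n = 4) and 313 ± 35.3 CPM per kb in KO antimiR-21 (SD, n = 4). Sdhd, a membrane anchor of succinate dehydrogenase, followed at 287 ± 18.2 CPM per kb in HET PBS (SD, n = 3), 262 ± 25.6 CPM per kb in KO PBS (SD, n = 4) and 268 ± 32.8 CPM per kb in KO antimiR-21 (SD, n = 4), within its spread of Idh2. Cytosolic Idh1 and the iron-sulphur subunit Sdhb came next at means of 230 and 224 CPM per kb, and they too did not differ beyond their spread.

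Cytosolic aconitase Aco1 (153 CPM per kb), Ogdh (149.6 CPM per kb) and Mdh2 (142 CPM per kb) formed a tier with overlapping spreads. Suclg1, Sdhc, Fh1 and Suclg2 lay between 112 and 87.1 CPM per kb, Sucla2 at 73.6 CPM per kb, and Idh3a, Got2, Pdk3 and Acly between 50.5 and 43.3 CPM per kb. The 4 lowest members all belonged to pyruvate dehydrogenase. Pdhx, the subunit that docks the lipoamide dehydrogenase of the complex, was at 17.1 CPM per kb, the phosphatase Pdp2 at 15.7, the kinase Pdk1 at 7.19 and the phosphatase Pdp1 at 2.16. No level per length is given for the 9 joint loci.

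As a set, the members had slightly lower values in KO PBS than in HET PBS, and none passed the adjusted threshold. The log2 difference was negative in 28 of 29 members and positive in 1, against 53.5% and 46.5% of all loci, with a median of -0.17 against -0.015 over all loci. edgeR called 0 members at an adjusted p under 0.05 and 0.0% of all loci in either direction. At an unadjusted p under 0.05 it marked 3 members as lower (2.73% of all loci) and 0 as higher (4.21%), and DESeq2 called 0 members in either direction (0.501% of all loci higher, 0.0834% lower). The median was -0.11 without HET PBS 2, without HET PBS 3 or without KO PBS 1. In bulk tissue, fewer cells of a type and less RNA per cell cannot be told apart.

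The mean log2 level of the 29 members, relative to HET PBS, placed the libraries as follows. HET PBS replicates 1 to 3 stood at -0.16, 0.08 and 0.08. KO PBS replicates 1 to 4 stood at -0.34, -0.08, -0.10 and -0.18. KO antimiR-21 replicates 1 to 4 stood at -0.19, -0.19, -0.28 and 0.04. The 3 groups overlapped, since HET PBS 1 lay below 2 of the 4 KO PBS libraries and KO antimiR-21 4 lay above HET PBS 1.

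Most members were high or low in the same libraries. KO PBS 1 was the lowest of all 11 libraries in 20 of 29 members and the lowest of its group in 27. HET PBS 1 was the lowest of its group in 26 members, KO antimiR-21 3 in 22, and KO antimiR-21 4 was the highest of its group in 24. All 4 places were held in 20 members, as the heat map of members by library shows. Of the other 9, Pdk1 and Pdp1 held none of the 4 places, the regulators Pdk2 and Pdp2 missed 2 each, and Pdk3, Idh3a, Ogdh, Mdh2 and Acly missed 1 each.

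**Figure D1:**
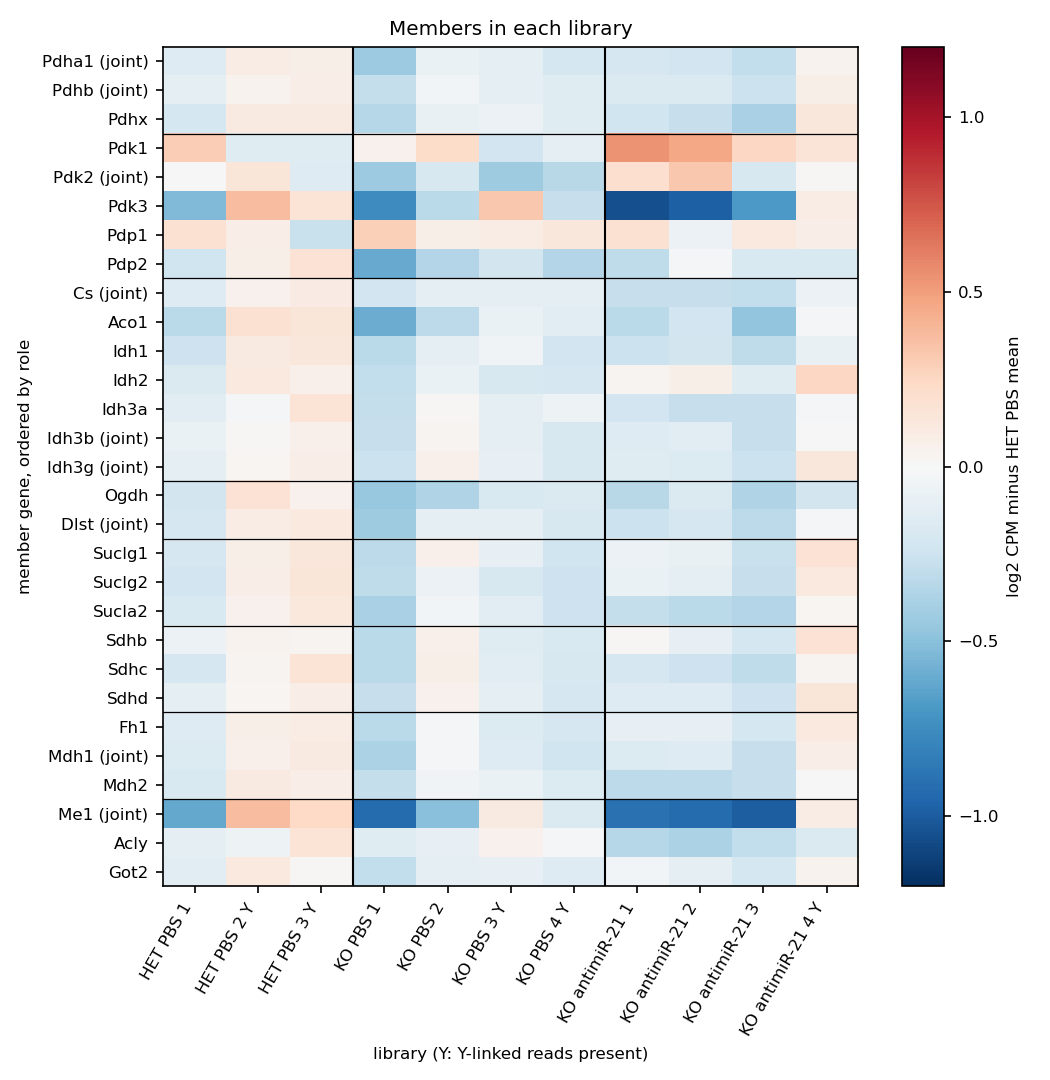
Log2 CPM of the 29 members (rows, by role) minus the HET PBS mean in each of the 11 libraries (columns, with Y where Y-linked reads were present). KO PBS 1 is low in most rows and KO antimiR-21 4 high within its group, while Pdk3 and Me1 hold the widest contrasts.

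Markers of some cell types moved beside the members. The summed level of 14 of 15 proximal tubule markers analysed was 28180, 49280 and 43570 CPM in HET PBS, 22150, 28560, 39960 and 32430 CPM in KO PBS, and 25860, 26280, 26030 and 43040 CPM in KO antimiR-21, and 14 of 14 had a negative difference in KO PBS (median -0.30, 0 called). KO PBS 1, HET PBS 1 and KO antimiR-21 4 hold the same extreme places in this sum as in most members. Much of the sum is Kap, the kidney androgen-regulated protein, and without it (left out after the values were seen) the treated libraries stood at 19280, 21030, 19020 and 21890 CPM, with 6 of the other 13 loci lowest of that group in KO antimiR-21 4. Tubular injury markers summed to 1099 to 2475 CPM in HET PBS and 1934 to 7720 CPM in KO PBS, highest in KO PBS 1, with 13 of 13 positive (median 1.36). All 10 fibroblast loci (median 0.93) and all 10 macrophage loci (median 0.64) were positive too. DESeq2 called 4 injury, 4 fibroblast and 2 macrophage loci higher (0.501% of all loci). No defining marker of these 4 lists was at 0 in any library, and edgeR called 0 of these loci. In the same comparison, 4 of 5 distal convoluted tubule loci (median -0.18) and 7 of 9 collecting duct loci (median -0.08) were negative. Positive were 4 of 6 thick ascending limb (median 0.06), 5 of 5 podocyte (0.31), 4 of 7 endothelium (0.01) and 5 of 6 lymphocyte loci (0.40). The part of cell makeup in the members' difference was not tested.

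The sex-linked split moved with the members as well. Among libraries with Y-linked reads (2 against 2) the median member difference of KO PBS minus HET PBS was -0.24, negative in 28 members. Among those without (2 KO PBS against the single HET PBS 1) it was -0.02, negative in 20. With Y-linked status as a covariate over all libraries the median was -0.12, and 28 members were negative.

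In the fit of the 3 groups alone, the set as a whole showed no common direction after antimiR-21. Against KO PBS, 17 members were positive and 12 negative (50.9% and 49.1% of all loci), with a median of 0.02 against 0.004 over all loci. edgeR called 0 members and 0.0% of all loci in either direction. At an unadjusted p under 0.05 it marked 3 members as higher (4.76% of all loci) and 1 as lower (3.46%), while DESeq2 called 1 member, Pdk2, as higher (0.584% of all loci). Without KO PBS 1 the negative members numbered 19, and without KO antimiR-21 4 they numbered 21. Among libraries with Y-linked reads (1 against 2) the median was 0.19, with 3 members negative. Among those without (3 against 2) it was -0.04, with 16 negative. With Y-linked status as a covariate over all libraries the median was 0.06, and 8 members were negative.

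Most members had lower values in treated knockouts than in heterozygotes, without passing the adjusted threshold. Against HET PBS, 25 members were negative (50.5% of all loci) and 4 positive (49.5%), Pdk1, Pdk2, Pdp1 and Idh2, with a median of -0.17. edgeR called 0 members, against 0.00695% of all loci higher (1 locus) and 0.0% lower. At an unadjusted p under 0.05, 1 member was higher (5.04% of all loci) and 3 were lower (3.01%), and DESeq2 called 0 (0.452% of all loci higher, 0.0626% lower). Within libraries with Y-linked reads (1 against 2) the median was -0.03, with 16 members negative. Within the others (3 against 1) it was -0.07, with 21 negative. With Y-linked status as a covariate the median was -0.09, and 23 members were negative. Without HET PBS 3 the median over all libraries was -0.10. The 3 comparisons share their libraries in pairs, so each is given by its own values.

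**Figure D2:**
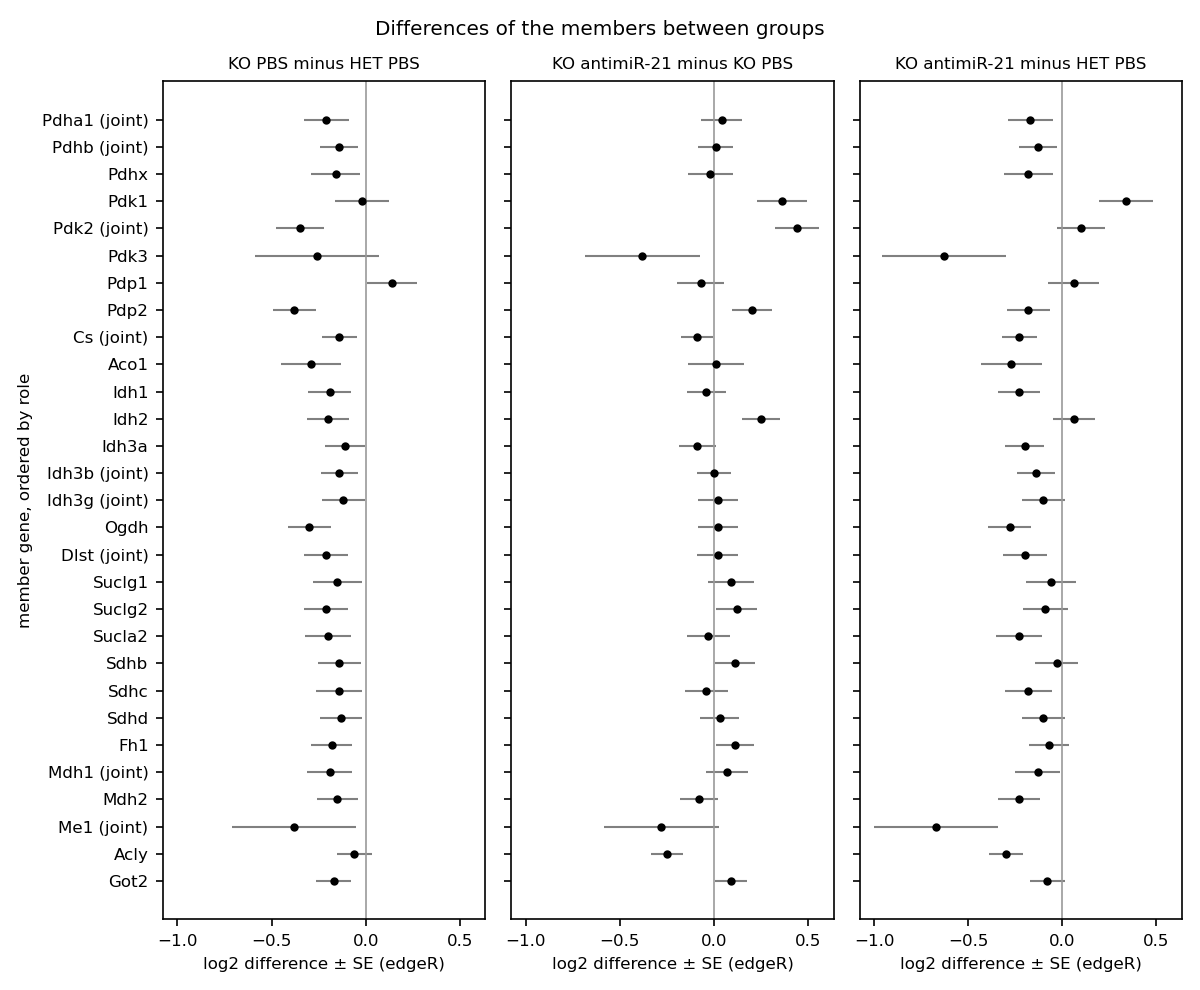
Log2 difference ± SE of each member (rows, by role) in the 3 comparisons, from the edgeR fit to all 11 libraries. Nearly all members sit left of 0 in KO PBS minus HET PBS, and Pdk2, Pdk1 and Idh2 sit right of 0, with Acly left, in KO antimiR-21 minus KO PBS.

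The subunits of the pyruvate dehydrogenase complex lay close to the set's median. Pdha1, the catalytic subunit that carries the phosphorylation sites, stood at 777, 918 and 909 CPM in HET PBS, 639, 819, 802 and 749 CPM in KO PBS and 754, 738, 705 and 893 CPM in KO antimiR-21. The groups overlapped, with KO PBS 1 lowest of all. The log2 differences were -0.21 for KO PBS minus HET PBS and 0.04 for KO antimiR-21 minus KO PBS, the latter the value of the member with the miR-21 seed match (edgeR adjusted p 0.784 and 0.960).

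Pdhx stood at 62.7, 78.4 and 78.4 CPM in HET PBS, 57.6, 68.4, 69.4 and 65.8 CPM in KO PBS and 61.8, 60.2, 55.5 and 80.1 CPM in KO antimiR-21. Its highest library was KO antimiR-21 4 and its lowest KO antimiR-21 3, so the spread within the treated group covered that of the others. Pdhb, the partner subunit of Pdha1, averaged 295 ± 20.4 CPM in HET PBS (SD, n = 3), 267 ± 19.5 CPM in KO PBS (SD, n = 4) and 269 ± 27.5 CPM in KO antimiR-21 (SD, n = 4), and its differences ran from -0.14 to 0.01. For all 3 subunits the difference of KO PBS minus HET PBS lay between -0.21 and -0.14.

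The kinases and phosphatases held the 2 members with the smallest p between the genotypes, Pdp2 and Pdk2, and the member with the smallest p for the treatment, again Pdk2. Pdk2, the kinase expressed in most tissues, stood at 389.7, 428 and 349 CPM in HET PBS, 286, 340.0, 288 and 308 CPM in KO PBS and 445, 484, 339.9 and 392 CPM in KO antimiR-21, counted with Samd14. Every KO PBS library lay below every HET PBS library. These groups did not overlap in 1 of 29 members, Pdk2, which is near the share over all loci (3.21% in this direction and 3.55% in the other). The treated libraries overlapped both groups, since KO antimiR-21 3 was nearly level with KO PBS 2.

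The Pdk2 locus averaged 389 ± 39.4 CPM in HET PBS (SD, n = 3), 306 ± 25.1 CPM in KO PBS (SD, n = 4) and 415 ± 62.9 CPM in KO antimiR-21 (SD, n = 4). The log2 difference was -0.35 for KO PBS minus HET PBS (SE 0.127, edgeR unadjusted p 0.0182 and adjusted p 0.609), 0.44 for KO antimiR-21 minus KO PBS (SE 0.118, edgeR unadjusted p 0.00291 and adjusted p 0.334) and 0.10 for KO antimiR-21 minus HET PBS (SE 0.127, edgeR unadjusted p 0.470 and adjusted p 0.800). DESeq2 gave 0.44 for the treatment, with an adjusted p of 0.0498. Within libraries with and without Y-linked reads the values were -0.37 and -0.32 for the genotype and 0.39 and 0.42 for the treatment.

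Within HET PBS and KO antimiR-21, the summed level of evening clock loci was lowest in the same libraries as the Pdk2 locus. The summed level of 6 loci of the evening arm of the kidney clock (Per2, Per3, Nr1d1 counted with Thra, Nr1d2, Tef and Bhlhe41) was 1184, 1359 and 796 CPM in HET PBS, 687, 649, 766 and 812 CPM in KO PBS, and 1396, 1481, 829 and 1295 CPM in KO antimiR-21. HET PBS 3 and KO antimiR-21 3 were the lowest of their groups in both this sum and Pdk2, as the plot of Pdk2 against clock genes shows. Within KO PBS this did not hold: KO PBS 2 had the highest Pdk2 and the lowest evening sum. The opposite arm (Arntl, Npas2, Clock and Nfil3) was highest of its group in the same pair, at 143.9 and 121 CPM against 57.0 to 72.7 CPM in the other HET PBS and KO antimiR-21 libraries. All 6 evening loci had a negative difference in KO PBS against HET PBS (median -0.76) and a positive one after treatment (median 0.91). Of these edgeR called 0, and DESeq2 called 2 lower and 4 higher in that order (0.0834% and 0.584% of all loci). The joint Nr1d1 and Thra locus differed least between the genotypes (-0.09). Within KO antimiR-21 it was lowest in replicate 4 (210.3 CPM), not in replicate 3 (231.0 CPM). The labels give no hour of collection, and the part of the clock phase in the Pdk2 difference was not tested.

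**Figure D3:**
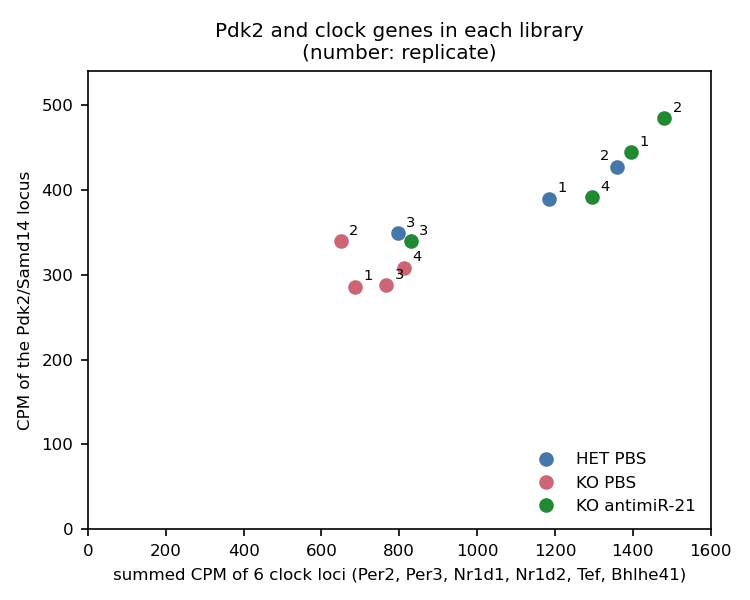
CPM of the Pdk2/Samd14 locus (y axis) against the summed CPM of 6 clock loci (x axis), with 1 point per library, coloured by group and numbered by replicate. HET PBS 3 and KO antimiR-21 3 fall beside the 4 KO PBS libraries, and the other 5 libraries lie higher on both axes.

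Pdk1, a kinase gene induced in low oxygen, stood at 62.1, 45.8 and 45.7 CPM in HET PBS, 52.6, 59.1, 43.3 and 47.0 CPM in KO PBS and 73.6, 69.7, 60.3 and 56.3 CPM in KO antimiR-21. The 2 highest libraries were treated ones, HET PBS 1 lay above 2 of the 4 treated libraries, and all 4 libraries under 50 CPM held Y-linked reads. The log2 difference was 0.36 for KO antimiR-21 minus KO PBS (SE 0.133, edgeR unadjusted p 0.0183 and adjusted p 0.491) and 0.34 for KO antimiR-21 minus HET PBS (SE 0.144, edgeR unadjusted p 0.0347 and adjusted p 0.590), against -0.02 between the genotypes. Within libraries without Y-linked reads the treatment difference was 0.28, and with them 0.32.

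Pdk3, an X-linked kinase gene, stood at 93.7, 175 and 152 CPM in HET PBS, 80.1, 108, 170.1 and 112 CPM in KO PBS and 65.2, 68.6, 84.0 and 144 CPM in KO antimiR-21. Its spread was among the widest of the set, and in each group the libraries with Y-linked reads were the upper ones. The difference of KO antimiR-21 minus HET PBS was -0.63 (SE 0.329, edgeR unadjusted p 0.0823 and adjusted p 0.614), and it was -0.18 within libraries with Y-linked reads and -0.38 within those without.

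Pdp2, a phosphatase that reactivates the complex, stood at 86.1, 107 and 115 CPM in HET PBS, 66.9, 79.8, 87.6 and 79.9 CPM in KO PBS and 82.3, 100.3, 89.7 and 89.5 CPM in KO antimiR-21. HET PBS 2 and 3 lay above all other libraries, while HET PBS 1 lay among the knockouts. KO PBS minus HET PBS was -0.38 (SE 0.114, edgeR unadjusted p 0.00587 and adjusted p 0.508), the smallest p of any member in that comparison, and KO antimiR-21 minus KO PBS was 0.20 (SE 0.107, edgeR unadjusted p 0.0812 and adjusted p 0.682). Pdp1, the other phosphatase and the least abundant member, was at 7.64 to 11.2 CPM and was the only member with a positive genotype difference, 0.14.

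**Figure D4:**
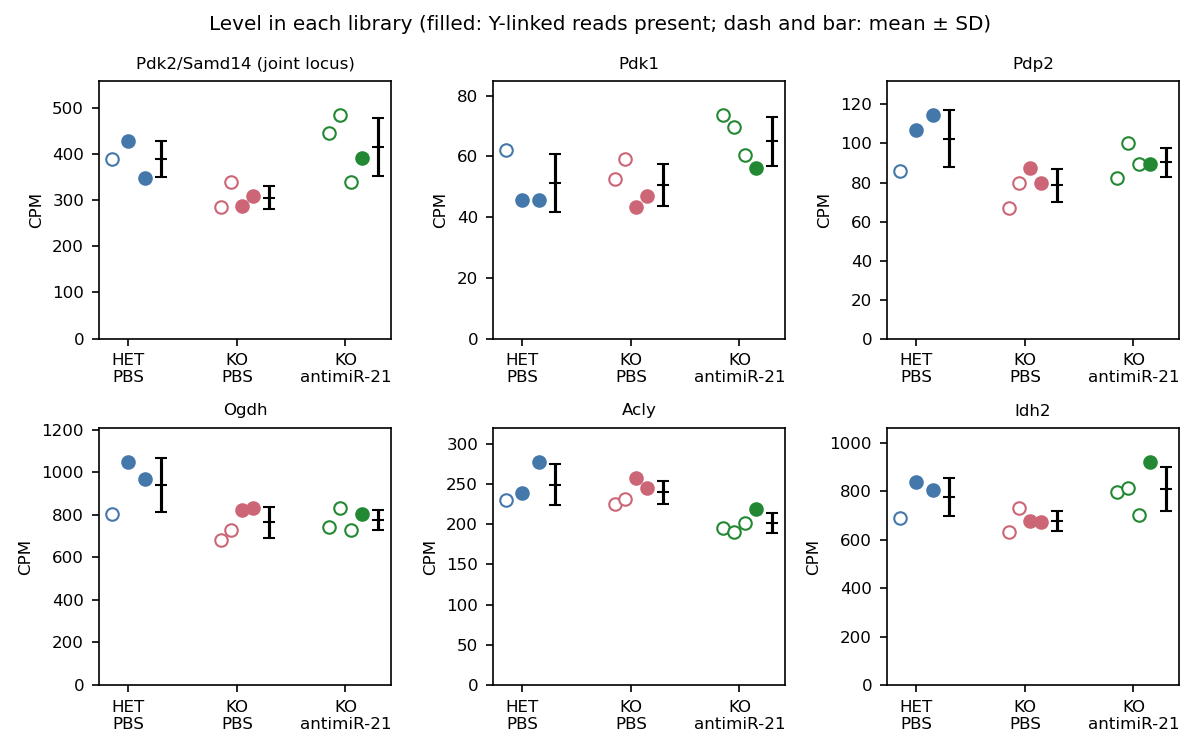
CPM of 6 members in each library (points, filled where Y-linked reads were present) by group, with mean ± SD beside them. Pdk2 is lower in all KO PBS than in all HET PBS libraries, Acly is lower in all KO antimiR-21 libraries than in all others, and the groups overlap in Pdk1, Pdp2, Ogdh and Idh2.

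From citrate to oxoglutarate, all 7 members had a negative difference in KO PBS against HET PBS. Cs, citrate synthase, which is counted with Coq10a, stood at 431, 497 and 510.5 CPM in HET PBS, 408, 443, 442 and 444 CPM in KO PBS and 393, 394, 389 and 455 CPM in KO antimiR-21. KO PBS was nearly uniform apart from KO PBS 1, and 3 of the 4 treated libraries lay below every other library. The difference of KO antimiR-21 minus HET PBS was -0.23 (SE 0.093, edgeR unadjusted p 0.029 and adjusted p 0.590).

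Aco1, cytosolic aconitase, which also serves as an iron-sensing RNA-binding protein, stood at 621, 882 and 862 CPM in HET PBS, 516, 625, 738 and 709 CPM in KO PBS and 620.4, 665, 559.9 and 767 CPM in KO antimiR-21. HET PBS 2 and 3 were the highest, and the groups overlapped in every comparison. KO PBS minus HET PBS was -0.29 and KO antimiR-21 minus HET PBS was -0.27, the largest of these 7 members.

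Idh2 stood at 689, 839 and 807 CPM in HET PBS, 632, 733, 678 and 675 CPM in KO PBS and 796, 816, 702 and 924 CPM in KO antimiR-21. It was the only one of these 7 members with more than a 0.1 log2 difference upward after treatment, 0.25 (SE 0.103, edgeR unadjusted p 0.0318 and adjusted p 0.552), and KO antimiR-21 3 overlapped KO PBS. Idh1, the cytosolic counterpart, averaged 706 ± 101 CPM in HET PBS (SD, n = 3), 620.4 ± 53.3 CPM in KO PBS (SD, n = 4) and 602 ± 39.3 CPM in KO antimiR-21 (SD, n = 4) and differed by -0.04 after treatment.

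The NAD-linked isocitrate dehydrogenase, whose subunits Idh3a, Idh3b and Idh3g act as a single enzyme of the cycle, kept its 3 subunits together. Idh3a averaged 277 ± 29.4 CPM in HET PBS (SD, n = 3), 256 ± 21.7 CPM in KO PBS (SD, n = 4) and 241 ± 21.1 CPM in KO antimiR-21 (SD, n = 4). The differences of KO PBS minus HET PBS were -0.11, -0.14 and -0.12 for the 3 subunits in that order, and those of KO antimiR-21 minus KO PBS were -0.09, 0.00 and 0.02. The groups overlapped for each of them, and the Idh3b and Idh3g values include Nop56 and Ssr4.

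The 2 oxoglutarate dehydrogenase members had a median genotype difference of -0.26. Ogdh, the substrate-binding subunit of this rate-controlling complex, stood at 803, 1050 and 966 CPM in HET PBS, 680.1, 726, 821 and 829.9 CPM in KO PBS and 742, 829.5, 728 and 803 CPM in KO antimiR-21. HET PBS 2 and 3 lay above all 8 knockout libraries, and HET PBS 1 lay among them. The log2 difference was -0.30 for KO PBS minus HET PBS (SE 0.114, edgeR unadjusted p 0.0233 and adjusted p 0.647) and -0.28 for KO antimiR-21 minus HET PBS (SE 0.114, edgeR unadjusted p 0.0328 and adjusted p 0.590), and 0.02 for the treatment. Within libraries with and without Y-linked reads the genotype value was -0.29 and -0.19.

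Dlst, the succinyl-transferring core of the same complex, stood at 589.8, 719.9 and 735 CPM in HET PBS, 506, 624, 626 and 596 CPM in KO PBS and 568, 590.2, 544 and 674 CPM in KO antimiR-21, counted with Rps6kl1. The groups overlapped through HET PBS 1, which lay below 3 of the KO PBS libraries. KO PBS minus HET PBS was -0.21 (SE 0.117, edgeR unadjusted p 0.0935 and adjusted p 0.769).

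Succinyl-CoA ligase, the step that forms GTP or ATP directly, showed no difference beyond the spread of libraries. Its shared subunit Suclg1 stood at 471, 570.4 and 595 CPM in HET PBS, 435, 567, 506 and 459.6 CPM in KO PBS and 516, 510.2, 452 and 613 CPM in KO antimiR-21. KO PBS 2 lay with the upper HET PBS libraries and KO PBS 1 lowest. Genotype and treatment differences were -0.15 and 0.09.

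The GTP-forming subunit Suclg2 stood at 368, 455 and 477 CPM in HET PBS, 348, 411, 378 and 361 CPM in KO PBS and 408, 399.8, 356 and 467 CPM in KO antimiR-21, and the difference of KO PBS minus HET PBS was -0.21. The ATP-forming subunit Sucla2 stood at 287, 338 and 355 CPM in HET PBS, 248, 318, 297 and 274 CPM in KO PBS and 266, 261, 254 and 331 CPM in KO antimiR-21, and the difference of KO antimiR-21 minus HET PBS was -0.23. After treatment Suclg2 differed from KO PBS by 0.12 and Sucla2 by -0.03, and the difference between the subunits was not tested.

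Succinate dehydrogenase, complex II of the respiratory chain, had 3 members in the counts, with genotype differences from -0.14 to -0.13. Sdhb stood at 496, 537 and 534 CPM in HET PBS, 417, 546, 473 and 459.9 CPM in KO PBS and 528, 487, 450.3 and 588 CPM in KO antimiR-21. The highest library was KO antimiR-21 4, the lowest KO PBS 1, and KO PBS 2 lay above all HET PBS libraries.

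Sdhc, a membrane subunit, stood at 311, 365 and 400.4 CPM in HET PBS, 286, 375, 326 and 312 CPM in KO PBS and 310.1, 301, 289.8 and 365 CPM in KO antimiR-21. Sdhd stood at 329, 359.9 and 372 CPM in HET PBS, 292, 365, 327 and 308 CPM in KO PBS and 318, 318, 297 and 389 CPM in KO antimiR-21. Both repeat the order of Sdhb within KO PBS, with replicate 2 highest and replicate 1 lowest. The treatment differences were 0.11 for Sdhb, -0.04 for Sdhc and 0.03 for Sdhd.

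Fumarase and the malate dehydrogenases close the cycle. Fh1, fumarase, stood at 314, 367 and 373 CPM in HET PBS, 279.5, 345, 312 and 304 CPM in KO PBS and 328, 328, 302 and 380.2 CPM in KO antimiR-21. The groups overlapped, and the differences were -0.18 for the genotype and 0.11 for the treatment.

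Mdh1, the cytosolic malate dehydrogenase of the malate-aspartate shuttle, had the highest count of the set, shared with Wdpcp: 1704, 1983 and 2050 CPM in HET PBS, 1467, 1891, 1716 and 1612 CPM in KO PBS and 1702, 1714, 1571 and 2015 CPM in KO antimiR-21. KO antimiR-21 4 lay beside the upper HET PBS libraries, and KO PBS 1 was the lowest. The difference of KO PBS minus HET PBS was -0.19.

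Mdh2, the mitochondrial enzyme that regenerates oxaloacetate, stood at 487, 593 and 582 CPM in HET PBS, 452, 535, 523 and 491 CPM in KO PBS and 445, 445, 456 and 549 CPM in KO antimiR-21. As with Cs, 3 of the treated libraries lay close together below the rest, except for KO PBS 1, which was between them. KO antimiR-21 minus HET PBS was -0.23 (SE 0.111, edgeR unadjusted p 0.0654 and adjusted p 0.614).

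Of the enzymes beside the cycle, Acly had lower values in treated than in untreated kidneys, without passing the adjusted threshold. Acly, which splits exported citrate into acetyl-CoA for lipid synthesis, stood at 230.2, 239 and 278 CPM in HET PBS, 225, 231, 257 and 245 CPM in KO PBS and 196, 191, 202 and 219.5 CPM in KO antimiR-21. All 4 treated libraries lay below all 7 others, the only member to do so in either comparison (1.95% of all loci lay lower than all of KO PBS, and 2.1% lower and 3.88% higher than all of HET PBS). Group means were 249 ± 25.5 CPM in HET PBS (SD, n = 3), 239.5 ± 14.3 CPM in KO PBS (SD, n = 4) and 202 ± 12.6 CPM in KO antimiR-21 (SD, n = 4).

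The log2 difference of Acly was -0.25 for KO antimiR-21 minus KO PBS (SE 0.085, edgeR unadjusted p 0.0143 and adjusted p 0.462) and -0.30 for KO antimiR-21 minus HET PBS (SE 0.092, edgeR unadjusted p 0.00676 and adjusted p 0.493). Neither passed the adjusted threshold. Between the genotypes it was -0.06. Within libraries with and without Y-linked reads the treatment difference was -0.19 and -0.22.

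Me1, the cytosolic malic enzyme that yields NADPH, stood at 320.0, 630.3 and 578 CPM in HET PBS, 258, 345, 526 and 432 CPM in KO PBS and 262, 257, 246 and 519 CPM in KO antimiR-21, with the antisense gene in the count. It had the largest difference of any member between treated knockouts and heterozygotes, -0.67 (SE 0.328, edgeR unadjusted p 0.0673 and adjusted p 0.614). The 5 libraries above 400 CPM were those with Y-linked reads, and within those the difference was -0.22, against -0.33 within the others.

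Got2, mitochondrial aspartate aminotransferase, stood at 231, 275 and 255 CPM in HET PBS, 206, 233, 236 and 227 CPM in KO PBS and 247, 235, 219 and 261 CPM in KO antimiR-21. Of the KO PBS libraries, 2 lay below all of HET PBS and the other 2 overlapped HET PBS 1. KO PBS minus HET PBS was -0.17 (SE 0.093, edgeR unadjusted p 0.0936 and adjusted p 0.769).

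Members passed the adjusted threshold in the comparison of Y-linked reads, which was chosen after the values were seen. In a model with the 3 groups and Y-linked status, 26 of 29 members had a positive difference where such reads were present (46.4% of all loci) and 3 a negative one (53.6%), with a median of 0.15. edgeR called 4 members higher, where 11.1% of all loci were called so, and 1 member lower, where 6.85% of all loci were, so that the shares called were close to the background. Ranges of the 5 and 6 libraries did not overlap for 3 members, all higher (8.14% of all loci, with 4.14% lower).

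Me1 was higher by 0.85 on the log2 scale (SE 0.096, edgeR adjusted p 8.5e-05) and Pdk3 by 0.77 (SE 0.135, edgeR adjusted p 0.00268). Aco1 was higher by 0.38 (SE 0.078, edgeR adjusted p 0.00546) and Pdhx by 0.27 (SE 0.074, edgeR adjusted p 0.0254). Pdk1 fell by 0.33 (SE 0.070, edgeR adjusted p 0.00596). Hence of 2 kinases of the same complex, Pdk1 was lower and Pdk3 higher in libraries with Y-linked reads, as the plot of members by Y-linked status shows, while Pdk2 differed by -0.06 (edgeR adjusted p 0.694).

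These calls depended on single libraries. Without HET PBS 1, the only heterozygote lacking Y-linked reads, 2 members were called higher (5.82% of all loci in that fit) and 0 lower (2.46%). Without KO PBS 2 the higher calls numbered 22 of 29, against 15.4% of all loci, and 1 member was lower (10.5%). DESeq2 called 8 members higher (12.5% of all loci) and 1 lower (8.91%). The summed proximal tubule level was 32430 to 49280 CPM in the 5 libraries with Y-linked reads and 22150 to 28560 CPM in the 6 without, but without Kap the ranges overlapped, at 19540 to 25850 CPM and 16400 to 21030 CPM. Of the 14 markers, 8 had a positive and 6 a negative difference, with 5 called higher and 1, Slc22a8, lower. The part of cell makeup in the members' differences was not tested.

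**Figure D5:**
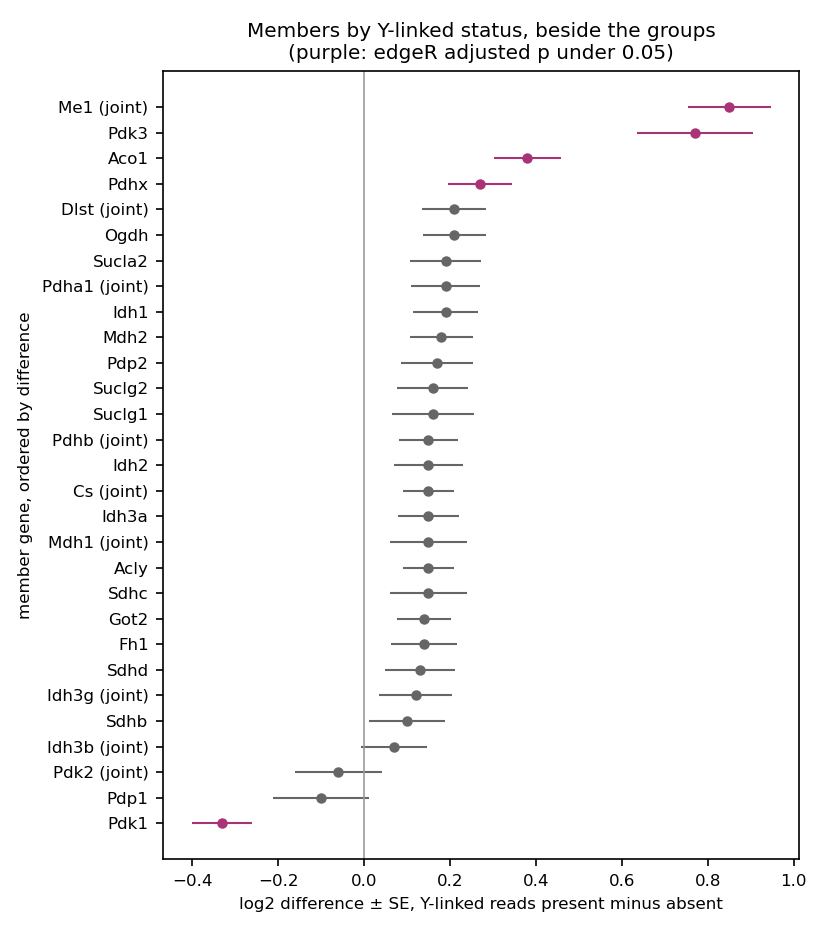
Log2 difference ± SE of each member (rows, ordered by size) between the 5 libraries with and the 6 without Y-linked reads, from a model that also holds the 3 groups. Me1, Pdk3, Aco1 and Pdhx are called higher and Pdk1 lower (edgeR adjusted p under 0.05, purple).

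Neighbouring genes of the pathway, from a list of 48 of which 36 were analysed, were also mostly negative between the genotypes. In KO PBS against HET PBS 28 of 36 were negative (53.5% of all loci), with a median of -0.13, and edgeR and DESeq2 called 0. At an unadjusted p under 0.05 edgeR marked 0 as higher (4.21% of all loci) and 3 as lower (2.73%). The 3 were Gpt2, the mitochondrial alanine aminotransferase (-0.31), Mut, methylmalonyl-CoA mutase, which feeds succinyl-CoA into the cycle (-0.28), and Dhtkd1, the homologue of Ogdh in lysine breakdown (-0.46).

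After treatment 23 of the 36 were positive against KO PBS (50.9% of all loci), with a median of 0.09 and 0 called by edgeR. At an unadjusted p under 0.05 edgeR marked 2 as higher (4.76% of all loci) and 1 as lower (3.46%). DESeq2 called 1 as higher (0.584% of all loci). That was Dhtkd1, at 139.7, 197 and 133 CPM in HET PBS, 89.8, 99.95, 135 and 129 CPM in KO PBS and 198, 214, 137 and 178 CPM in KO antimiR-21. Every treated library lay above every KO PBS library (2.34% of all loci did so), and the difference was 0.68 (SE 0.179, edgeR unadjusted p 0.00276 and adjusted p 0.334; DESeq2 adjusted p 0.0425). Like Pdk2 it was lowest in replicate 3 within HET PBS and KO antimiR-21. The aspartate-glutamate carrier Slc25a13 differed by 0.29.

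Against HET PBS the treated kidneys had 22 negative and 14 positive neighbours (50.5% and 49.5% of all loci), with 0 called by edgeR and DESeq2. At an unadjusted p under 0.05 edgeR marked 1 in each direction (5.04% of all loci higher, 3.01% lower). Mitochondrial phosphoenolpyruvate carboxykinase Pck2 differed by 0.29 and Ireb2, an iron-regulated homologue of Aco1, by -0.28. Pdk4, the fasting-induced kinase that completes the kinase family, varied most: 57.4, 14.6 and 31.7 CPM in HET PBS, 40.4, 70.6, 22.2 and 40.0 CPM in KO PBS and 89.0, 62.3, 35.0 and 23.0 CPM in KO antimiR-21, with all groups overlapping. Pdk4 was chosen for its place in the pathway, outside the naming rule. In the model with Y-linked status, 8 of the 36 were called higher (11.1% of all loci) and 4 lower (6.85%).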

How the data were processed

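mRNA of 11 whole mouse kidneys was sequenced with the TruSeq RNA v2 kit, which does not mark strand, per the labels' protocols. Each library has a deposited table of estimated counts by gene name, in steps of 0.5 and not normalized, per the file headers and values. Tools listed are HTSeq 0.5.4p5, STAR, SAMtools, FastQC and limma on mm10, per the submitters' processing notes, while the gene models used to count were not given in the sources used here. A log2 matrix that the authors deposited differs from log2 CPM by a constant per column and served as an alternative only.

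Names with identical counts in all 11 libraries and a total of at least 50 were joined (1513 joint loci, 1502 tested), so that shared reads entered once. Libraries held 22.4 to 49.7 M counts before joining and 17.9 to 39.7 M afterwards, of which unnamed loci took 1.35%. Rounded counts entered edgeR 4.0.16 under R 4.3.3 (filterByExpr, TMM, quasi-likelihood with robust spread), in a fit of the 3 groups to all 11 libraries. Tests were two-sided, with Benjamini-Hochberg adjustment over 14380 loci at 0.05, and the biological coefficient of variation was 0.215. Alternatives used DESeq2 1.42.0, limma 3.58.1, other scaling and filters, the 2 groups compared alone, a replicate block, Y-linked status as a covariate, unjoined rows, and leaving out each library. The fit was also run on simulated data, with changes larger than the members' median differences and with no Y-linked split. The outcome of that run is not reported here. TMM factors ran from 0.917 to 1.08.

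A library counted as having Y-linked reads where Ddx3y, Eif2s3y, Kdm5d and Uty summed to over 5 CPM. The comparison of that status was added after the values were seen. CPM per kb used merged exon lengths from GENCODE vM21 on GRCm38, which mm10 names. The members, lists and tests were chosen with earlier results of these data known, so no p-value is adjusted over a list alone. Members given in every library were those with the 5 smallest p in each comparison, and in each role group the highest level and the largest difference. Neighbouring pathway genes were named by the 3 smallest p, and some genes are not reported here.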

Additional observations from a re-analysis of the deposited data

Results flagged for a closer look

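In 58 groups of 4 libraries, 5 had a single library whose gap to the next exceeded Dixon's 95% critical share of the group's range. For a single group chance gives about 1 in 20, but these groups are members measured in the same libraries. They are not independent, so the count cannot be judged by that share. KO PBS 1 was lowest for Cs at 407.6 CPM, against 442 to 444 CPM in the other KO PBS libraries. KO antimiR-21 4, the treated library with Y-linked reads, was highest for Cs at 455.4 CPM (the others 389 to 394 CPM), for Sucla2 at 331.3 CPM (254 to 266 CPM), for Mdh2 at 548.9 CPM (445.0 to 456 CPM) and for Me1 at 518.7 CPM (246 to 262 CPM). The same library had the highest summed proximal tubule level of its group, 43040 CPM against 25860 to 26280 CPM, and without the abundant marker Kap 21890 CPM against 19020 to 21030 CPM. Without it the members' median difference of KO antimiR-21 minus KO PBS was -0.07 in place of 0.02.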

How the results depend on the processing

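The 15 single-member differences tested most closely were those with the smallest p in each comparison, chosen from these same data. None passed the adjusted threshold in the main fit, and the alternatives reused all or most of the same libraries. Keeping direction and side of the threshold was therefore likely beforehand, so the count that did so is no independent test. Under the alternatives 299 of 300 values kept both, and 0 reversed. The exception was Pdk2 in KO antimiR-21 minus KO PBS, 0.44 under DESeq2 with an adjusted p of 0.0498, so that DESeq2 called 1 member and 1 neighbouring gene, Dhtkd1, against 0 with edgeR. limma-voom and the other alternatives called 0 members in each comparison. Negative members numbered 27 to 28 of 29 in KO PBS minus HET PBS (median -0.25 to -0.11) and 23 to 26 in KO antimiR-21 minus HET PBS (median -0.24 to -0.10) when each library was left out. In KO antimiR-21 minus KO PBS they numbered 8 to 21 (median -0.07 to 0.05), with 19 without KO PBS 1 and 21 without KO antimiR-21 4. Among the 20 members with their own count, 19, 9 and 17 were negative in KO PBS minus HET PBS, KO antimiR-21 minus KO PBS and KO antimiR-21 minus HET PBS.

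Over all loci DESeq2 called 72 higher and 12 lower in KO PBS against HET PBS, 84 and 54 in KO antimiR-21 against KO PBS, and 65 and 9 in KO antimiR-21 against HET PBS, where edgeR called 0 and 0, 0 and 0, and 1 and 0. Higher loci numbered 3 and 2 with Y-linked status as a covariate, and 1 and 2 with limma on the deposited matrix, in KO PBS and in KO antimiR-21 against HET PBS, and limma-voom gave 0 in the latter. Leaving out each library gave 0 to 2, 0 to 16 (16 without KO antimiR-21 3) and 0 to 4 higher loci in the 3 comparisons in the order above. For Y-linked reads, DESeq2 called 8 members higher (12.5% of all loci), and leaving out each library gave 2 to 22 higher (5.82% to 15.4% of all loci) and 0 to 1 lower (2.46% to 10.5%). The cause of these shifts was not tested.

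Replicate numbers are shared between the groups. Deviations of same-numbered libraries correlated at -0.444 to 0.629 (KO PBS with HET PBS), -0.209 to 0.359 (KO antimiR-21 with KO PBS) and -0.300 to 0.479 (KO antimiR-21 with HET PBS). Some same-numbered libraries differ in Y-linked status, so these values cannot settle whether the numbers pair the libraries. The main fit assumed no pairing. With the replicate block, edgeR called 0 members in each comparison, 1 locus lower in KO antimiR-21 against KO PBS and 0 higher in KO antimiR-21 against HET PBS. Pdp1 was the least abundant member, at 7.64 to 11.2 CPM in libraries of 17.9 to 39.7 M counts, with a genotype SE of 0.135.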
